A study of Mus musculus with 10 samples.

Results

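The Zfp series is a set of mouse zinc finger genes that share one name, taken here as every gene named Zfp followed only by digits. Zfp36, which encodes the RNA-binding protein tristetraprolin with CCCH fingers, was left out. The deposited table held 218 such genes among its 10141 entries. They were compared between GFP+ leukaemia cells (genotype MLL-AF9/GFP) and GFP-negative CD11b+ myeloid cells, both sorted from the bone marrow of CD45.1 recipient mice that had been injected with thawed MLL-AF9/GFP cells. Marrow was collected once GFP+ cells made up 2% of peripheral blood. Each group had 5 libraries. MLL-AF9 joins the histone methyltransferase gene MLL to AF9 and causes this leukaemia, whereas CD11b is an integrin that maturing granulocytes and monocytes carry on their surface. The myeloid cells came from marrow that also held leukaemia, and no marrow of mice without leukaemia and no normal immature cells were part of the comparison.

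Most Zfp genes encode proteins with repeated C2H2 zinc fingers, each a small fold that holds a zinc ion and reads a few bases of DNA. A large share also carry a KRAB box near the amino end, which binds the corepressor TRIM28 (also called KAP1). TRIM28 in turn brings the histone methyltransferase SETDB1 and HP1 proteins to the bound site, which silences retroelements and some genes. Members without a KRAB box are more varied and include transcription activators, RNA-binding proteins and ubiquitin ligases. KRAB zinc finger genes often lie in clusters that arose by duplication.

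The table held variance-stabilised log2 values, from which whole reads were recovered, and levels below are normalised reads, that is reads divided by the library's size factor. The 10141 genes held 24099362 to 30879205 reads in the leukaemia libraries and 24712645 to 32247368 in the myeloid libraries. The table contained almost no gene that did not differ: of 8079 genes above the filter on low values, 8062 (99.8%) passed the limma test at an adjusted p of 0.05, and no gene had an unadjusted p above 0.243. A member passing the test is therefore no result about the member, and the size and direction of its difference are what is described below. The labels do not say that libraries of a group came from separate mice, so p-values measure only the spread between these libraries. In bulk RNA, fewer cells of a type and less RNA per cell cannot be told apart. The sorted populations differed in maturity markers. The summed level of 10 mature neutrophil markers (10 of 10 in the table) was 53610 to 57880 in leukaemia and 2203000 to 3547000 in myeloid libraries, and that of 5 genes of the MLL fusion programme (5 of 6 in the table) was 9389 to 11700 against 253.6 to 367.3. Dendritic cell and MHC class II markers (7 of 7) summed to 1018 to 2375 against 5715 to 60790, and monocyte markers (5 of 8) to 13110 to 22690 against 28380 to 73570. Lymphoid markers (11 of 11) summed to 3450 to 6340 against 2475 to 6522, with 1 of them at 0 in all leukaemia libraries, and erythroid markers (3 of 10) to at most 186.2 against 501.4. The lymphoid sums overlapped, but most single markers did not follow them, with 2 of the 11 higher in leukaemia and 9 lower without the filter. The median lymphoid marker stood at 5.92 in leukaemia against 243.2 in myeloid libraries. The part of these markers in the differences below was not tested.

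Zfp genes were split between both populations. Of the 161 members above the filter, 88 were higher in leukaemia (54.7%, where 49.1% of all tested genes were called higher) and 73 were lower (50.7% of all tested genes were called lower). The median log2 difference of the 161 members was 0.18, and that of all tested genes was -0.16. Changes of at least 2-fold were found in 34 members towards leukaemia (21.1%, against 22.4% of all tested genes) and in 16 towards myeloid cells (9.94%, against 25.0%). The libraries of both groups did not overlap in 125 of the 161 members, and 86.8% of all tested genes had no overlap. Without the filter, 137 of the 218 members were called higher (50.8% of all 10141 genes), 80 lower (48.7% of all genes) and 1, Zfp287, passed in neither direction (adjusted p = 0.054, limma). With a stricter filter, a mean over 2 units above the lowest value, 72 members were left and 24 were higher and 48 lower (99.9% of all genes so filtered passed, 41.6% higher and 58.3% lower).

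The split depended on how libraries were scaled. The normalised reads of the whole table summed to 22456458 in leukaemia and 35023391 in myeloid cells on average, so a scaling to equal totals raises every leukaemia value. With reads scaled so that each library had the same table total, and fitted with limma-voom, 98 members were higher (57.2% of all tested genes) and 22 lower (27.6% of all tested genes), and 10 members called lower became called higher. With quantile normalisation, 66 were higher (47.0% of all tested genes) and 58 lower (41.0% of all tested genes). The median of all tested genes itself moved from -0.16 to 0.09 under quantile normalisation, and from -0.21 to 0.43 between the voom fits with the deposited size factors and with the table total. Relative to that median, the members' median lay at 0.34 as deposited, at -0.07 under quantile normalisation, at 0.59 by voom with the deposited size factors and at 0.60 by voom with the table total. Members above the median of all genes numbered 92, 74, 89 and 89 of 161 in these same fits.

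**Figure D1:**
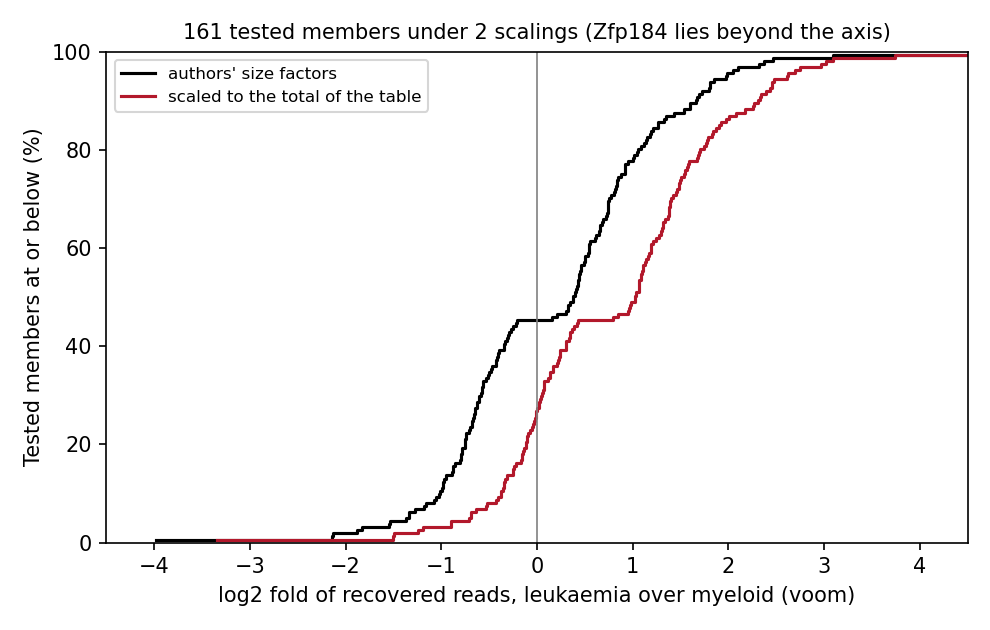
Cumulative share of the 161 tested members (vertical axis, percent) by log2 fold of recovered reads, leukaemia over myeloid (horizontal axis, voom fits), with the deposited size factors (black) and with reads scaled to the total of the table (red). The black curve is flat across 0, since no member lay between -0.21 and 0.16, and 98 members were called higher on the red curve against 88 on the black one.

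Levels in both populations followed each other across members. The Spearman correlation between reads per kilobase of exon in leukaemia and in myeloid cells was 0.84 over the 218 members, which is a description across genes of the same libraries. The median member had 96.6 normalised reads per kb in leukaemia and 68.4 in myeloid cells, below the medians of all genes of the table (192.9 and 196.8). All members together took 0.73 ± 0.043% of the reads of the table in leukaemia libraries and 0.56 ± 0.037% in myeloid libraries (SD, n = 5 each). In normalised reads the order was the opposite, with 164500 ± 8283 in leukaemia and 196848 ± 10200 in myeloid cells. The 10 members with the most reads supplied 25.1% of all member reads in leukaemia and 36.2% in myeloid cells. The median coefficient of variation between libraries of a group was 10.8% in leukaemia and 15.1% in myeloid cells over the tested members. Over all tested genes it was 8.91% and 13.2%.

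**Figure D2:**
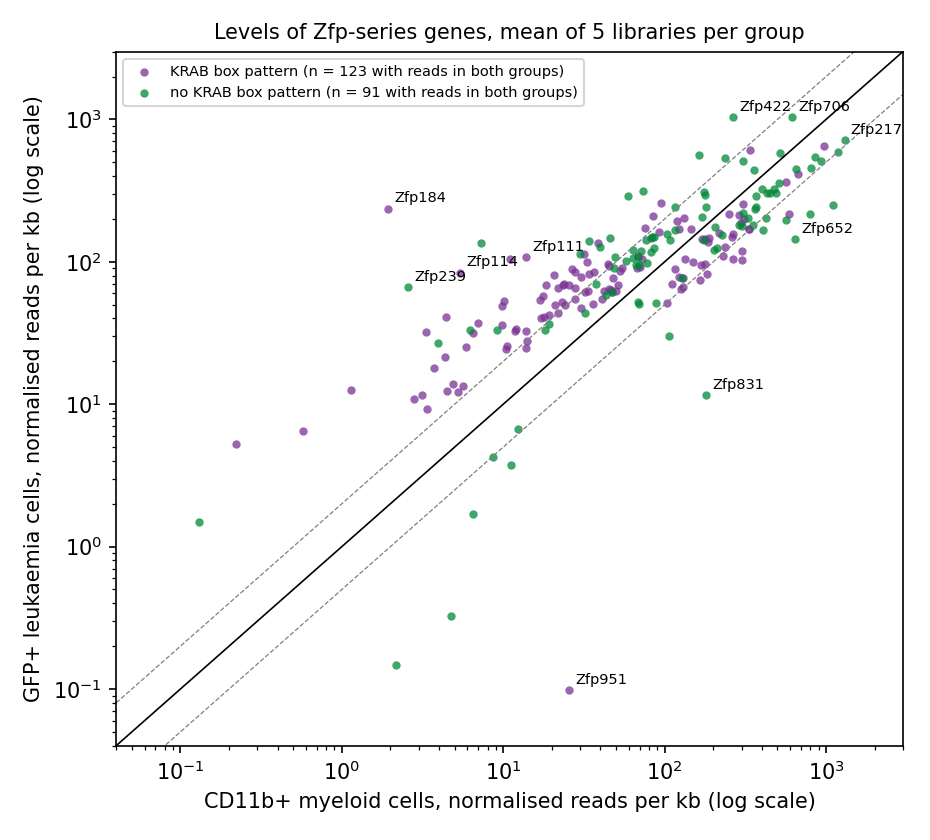
Mean normalised reads per kb of each member in CD11b+ myeloid cells (horizontal, log scale) and GFP+ leukaemia cells (vertical, log scale), 5 libraries a group, with members holding the KRAB pattern in purple and the others in green; members with no reads in one group are not drawn. The solid line marks equal levels and the dashed lines a 2-fold difference, and rare members lie mostly above the solid line while Zfp217, with the highest mean level, lies below it.

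Direction went with the number of reads. Among 51 members under 150 normalised reads (mean of both groups), 43 were higher in leukaemia by the unfiltered fit (84.3%, against 57.5% of all genes in that range). Between 150 and 300 reads, 30 of 35 were higher (85.7%, against 70.1% of all genes), and between 300 and 600 reads 35 of 52 were (67.3%, against 68.1%). From 600 to 1200 reads 20 of 39 were higher (51.3%, against 59.5%). Of the 41 members over 1200 reads only 9 were higher (22.0%, against 36.6%) and 32 were lower. The Spearman correlation between level and log2 difference was -0.35 over the 218 members and -0.25 over all 10141 genes, both across genes. Scaling to the table total raises every leukaemia value, and in the range over 1200 reads it gave 15 members higher and 11 lower of 41, against 2181 higher and 1637 lower of 4535 among all genes. The lean of members with many reads towards myeloid cells did not hold under that scaling.

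**Figure D3:**
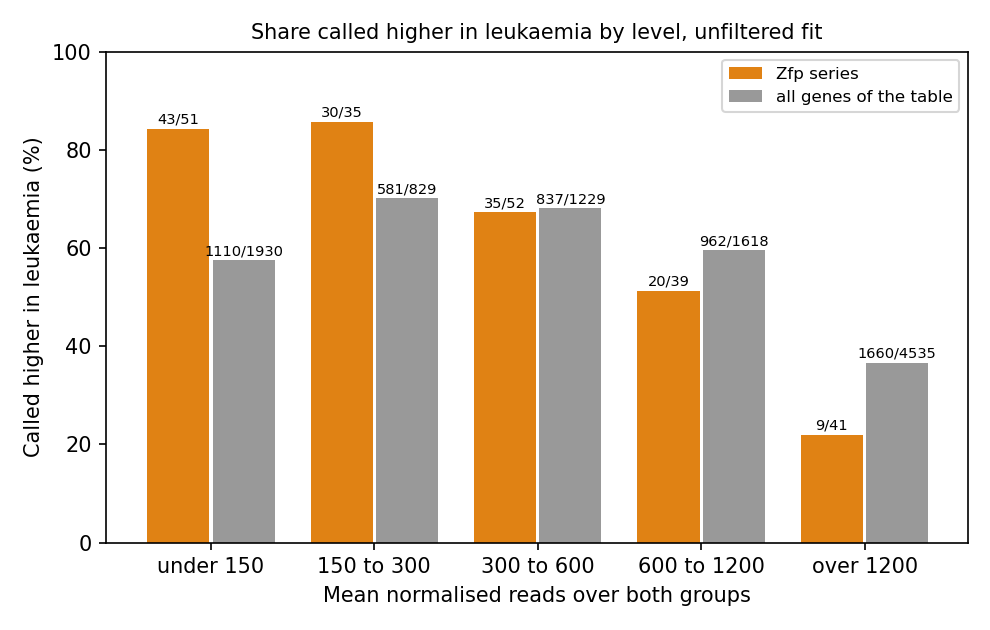
Percentage of Zfp genes (orange) and of all genes of the table (grey) called higher in leukaemia by the unfiltered limma fit, by mean normalised reads over both groups, with the number higher over the number of genes above each bar. The share of Zfp genes goes from 84.3% in the lowest range to 22.0% in the highest.

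A KRAB box was searched for by sequence pattern in all annotated proteins of each member. It was found in 126 members, and 92 had none. KRAB members were rarer, with a median of 75.8 normalised reads per kb in leukaemia and 37.6 in myeloid cells, against 146.0 and 111.8 for the others. Of the KRAB members 88 were higher and 38 lower without the filter (69.8% higher), and of the others 49 were higher and 42 lower (53.3% higher). Without the filter 50.8% of all genes were higher. Among members above the filter, 47 of 83 KRAB members (56.6%) and 41 of 78 others (52.6%) were higher, against 49.1% of all tested genes. Among KRAB members under 300 normalised reads, 59 of 63 were higher and 4 lower, whereas among those of 600 to 1200 reads 5 of 17 were higher and 12 lower. Of all genes of the table, 61.3% were higher under 300 reads and 59.5% from 600 to 1200. With scaling to the table total, the KRAB members of 600 to 1200 reads split into 6 higher and 3 lower. Members without the box under 300 reads numbered 14 higher and 8 lower of 23, and those of 600 to 1200 reads 15 higher and 7 lower of 22. Between 300 and 600 reads, 22 of 36 KRAB members (61.1%) and 13 of 16 others (81.2%) were higher, against 68.1% of all genes. Over 1200 reads both classes leaned to myeloid cells, with 8 of 10 KRAB members and 24 of 31 others lower, where 36.6% of all genes were higher. This did not hold with scaling to the table total, which gave 6 higher and 2 lower for KRAB members and 9 of each for the others.

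The fingers themselves were counted with the C2H2 pattern, and the annotated protein with the most was taken for each member. The median was 10, with 12 in KRAB members and 7 in the others, and the highest count was 36. Members with 15 or more fingers were called higher in 22 cases and lower in 12 of 34 tested, where 49.1% of all tested genes were higher and 50.7% lower. Those with 0 to 4 fingers were higher in 15 and lower in 14, those with 5 to 9 in 24 and 22, and those with 10 to 14 in 27 and 25. The Spearman correlation between the number of fingers and the log2 difference was 0.05 across the 218 members. Duplicated members can share reads, and 30 members shared over 20% of their 50-base stretches with another gene. Without the filter 20 of these were higher and 10 lower, where 50.8% of all genes were higher. Of the 15 tested among these 30 members, 6 were higher and 9 lower. The folds of all 30 are uncertain. A gene on the opposite strand overlapped exons of 48 members, whose reads cannot be told apart without a strand setting, and of the 42 tested among them 18 were higher and 24 lower. Zfp143, Zfp740, Zfp710, Zfp106, Zfp706, Zfp410, Zfp384, Zfp687, Zfp335, Zfp341, Zfp90, Zfp597, Zfp608 and Zfp943, described below, are among the 48.

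Zfp184, a KRAB protein with 18 fingers by the pattern, had the highest log2 difference of the members, with or without the filter. The leukaemia libraries held 784.8, 677.4, 888.0, 998.4 and 796.0 normalised reads, and the myeloid libraries 8.16, 17.7, 0, 0 and 8.15. It was nearly all on one side, with 5201 recovered reads in leukaemia against 28 in myeloid cells. The fold was 122, and the log2 difference of the stabilised values, which understates a change from so low a level, was 2.04 ± 0.086 (SE, adjusted p = 1.68e-10, limma). An exon of a gene on the opposite strand overlaps Zfp184, so the strand of these reads is uncertain.

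Zfp422 and Zfp111 came next. Zfp422, a protein with 5 fingers by the pattern that was described in tooth development, held 3497, 3650, 3601, 4296.0 and 3815 normalised reads in leukaemia and 851.2, 1069.7, 748.6, 1240.0 and 902.2 in myeloid cells. The fold was 3.92 (log2 difference 1.55 ± 0.088 SE, adjusted p = 2.4e-09, limma). Zfp111, a KRAB member, held 986.7, 1051.9, 1153.3, 1238.7 and 1076.1 reads against 100.3, 70.9, 149.0, 160.2 and 220.1, a 7.86-fold difference (adjusted p = 2.74e-09, limma). The myeloid values of Zfp111 spread widely around their mean of 140.1.

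Zfp64 has a known tie to this kind of leukaemia, since its human counterpart is known to sustain transcription of MLL in MLL-rearranged cells. Its leukaemia libraries held 680.5, 854.7, 918.9, 843.9 and 866.5 normalised reads and its myeloid libraries 233.2, 222.2, 142.9, 208.1 and 202.5. The groups lay far apart, with a fold of 4.13 (log2 difference 1.05 ± 0.067 SE, adjusted p = 6.76e-09, limma). Zfp568, a KRAB protein that silences a placental transcript of Igf2, held 1822 to 2055 reads in leukaemia and 332.1 to 878.0 in myeloid cells, 2.74-fold higher. Zfp593, which acts in the making of the large ribosomal subunit, rose 4.91-fold, from 123.9 ± 54.3 to 608.3 ± 77.6 reads (SD, n = 5 each). Zfp219, a partner of Sox9 in cartilage, rose 4.28-fold (1415 ± 249.9 against 330.9 ± 77.7), although exons of Arhgef40 and Tmem253 overlap it.

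The other 5 of the 12 highest members above the filter were higher by 3.19- to 4.97-fold. All 12 were chosen among members without overlap between groups, so their lack of overlap is no result. Zfp316, a KRAB member, was 4.97-fold higher but rare (365.5 ± 34.4 against 73.5 ± 17.0). Zfp704 was 3.83-fold, Zfp251 3.51-fold, Zfp146 3.47-fold and Zfp629 3.19-fold higher, and Zfp146 is a protein made almost wholly of zinc fingers. Antisense transcripts overlap exons of Zfp704 and of Zfp593.

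**Figure D4:**
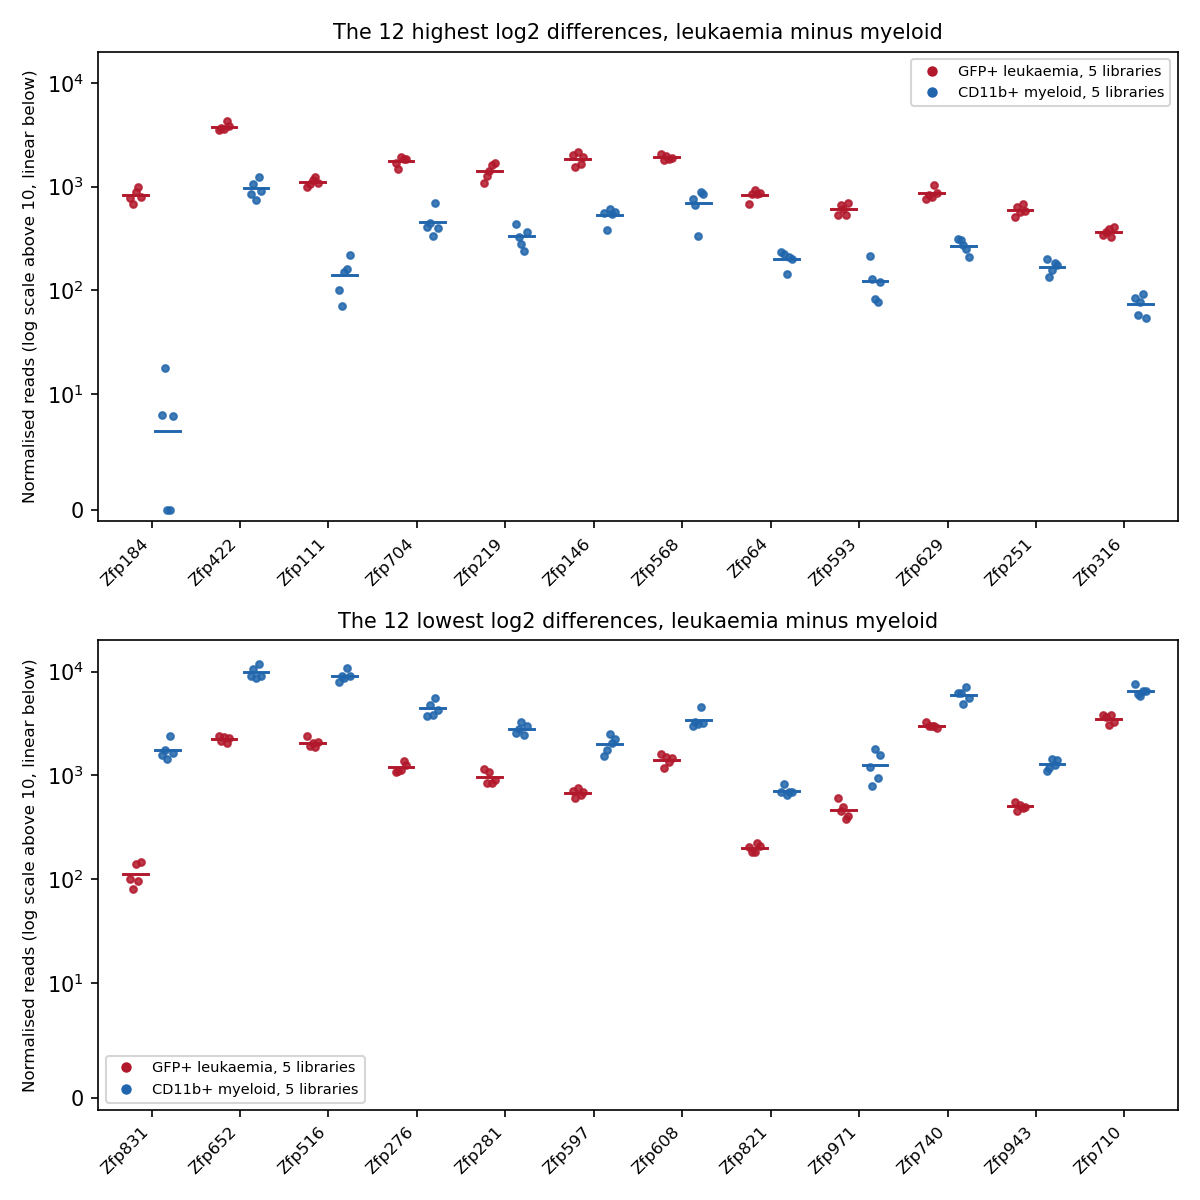
Normalised reads per library (vertical axis, logarithmic above 10 and linear below) of the 12 members with the highest log2 differences (upper panel) and the 12 with the lowest (lower panel) among those above the filter whose groups do not overlap, leukaemia in red and myeloid in blue, 5 points a group with the mean as a line. By that choice no gene shown overlaps between groups, and 2 myeloid libraries of Zfp184 lie at 0.

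On the other side, Zfp831 had the lowest log2 difference of the members above the filter. Its leukaemia libraries held 101.3, 81.3, 139.5, 96.8 and 146.6 normalised reads, and its myeloid libraries 1584.5, 1742.2, 1449.5, 2413.2 and 1649.5. It was 15.6-fold lower in leukaemia (log2 difference -2.10 ± 0.097 SE, adjusted p = 3.73e-10, limma). The lowest myeloid library lay far above the highest leukaemia one. Among members above the filter, the next lowest differed by 4.43-fold or less.

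Zfp652, which binds the corepressor CBFA2T3 of blood cells, had the next lowest log2 difference. It held 2372, 2153, 2316.0, 2028 and 2272.0 reads in leukaemia and 9039, 10659, 8644, 11876 and 9146 in myeloid cells, 4.43-fold lower in leukaemia (adjusted p = 2.41e-10, limma). Exons of Abi3, Phospho1 and an antisense transcript overlap it, so part of its reads may be theirs. Zfp516, an activator of the thermogenic gene Ucp1 in brown fat, fell 4.40-fold, from 9096 ± 1104 to 2067 ± 209.2 (SD, n = 5 each, adjusted p = 2.59e-10, limma).

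Zfp276 fell 3.70-fold (1190.5 ± 125.6 against 4403 ± 783.6), with exons that overlap Fanca and Vps9d1. Zfp281, which helps to control the pluripotency gene Nanog in embryonic stem cells, fell 2.91-fold (964.3 ± 139.4 against 2804 ± 332.1). Zfp608, described as a repressor of Rag genes in thymocytes, fell 2.43-fold. Zfp821 was 3.54-fold, Zfp597 2.95-fold and Zfp943 2.54-fold lower. Zfp971 was 2.69-fold lower and belongs to the members that share much of their sequence with other genes, so its value is uncertain.

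The most abundant members per length leaned to myeloid cells. Zfp217, known as a partner of CtBP and as an oncogene in human breast cancer, had the highest mean level, 718.5 normalised reads per kb in leukaemia and 1303 in myeloid cells. Its libraries held 4586, 4248, 4450.1, 4364 and 4406 normalised reads in leukaemia and 7725, 7159, 7896, 9292 and 7935 in myeloid cells, 1.81-fold lower in leukaemia with no overlap. Zfp740 was 1.99-fold lower (593.1 against 1178.0 reads per kb) and Zfp710 1.84-fold lower (508.2 against 935.6). Zfp445, a KRAB protein that keeps DNA methylation at imprinted genes, was 1.51-fold lower (647.0 against 975.2 reads per kb), and its log2 difference turned to 0.01 under quantile normalisation and 0.04 under scaling to the table total. Zfp106, an RNA-binding protein needed by motor neurons, was 1.57-fold lower with the deposited size factors and passed in neither direction under those scalings.

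Zfp706, the only one of the 6 most abundant per length that was higher in leukaemia, is a small protein with 1 finger that was described as a repressor of Klf4 in embryonic stem cells. It held 5059, 5305, 4974, 5393 and 5079 normalised reads in leukaemia and 2987, 3278, 3125, 2915 and 3041 in myeloid cells. The libraries of each group were tightly grouped and the fold was 1.68 (log2 difference 0.66 ± 0.052 SE, adjusted p = 5.07e-08, limma). Klf4 itself, one of 12 Krueppel-like factors in the table, held 951.8 ± 308.8 in leukaemia and 2945 ± 476.5 in myeloid cells.

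Members with a described role in gene control outside KRAB silencing were mostly lower in leukaemia. Of 33 listed genes 20 were in the table and 19 were tested, of which 5 rose and 14 fell, with a median log2 difference of -0.42 against -0.16 for all tested genes. With scaling to the table total 6 rose and 5 fell, with a median of 0.13, where the median of all tested genes was 0.43, with 57.2% higher and 27.6% lower. With quantile normalisation 5 rose and 9 fell, where 47.0% of all tested genes were higher and 41.0% lower. The listed genes were abundant, with a median level of 1431 (leukaemia) and 2164 (myeloid). Over 1200 reads, 32 of 41 members and 2870 of 4535 genes of the table were lower as deposited. Whether the list differs from genes of similar level was not tested. Besides Zfp219, the listed members that rose as deposited were Zfp318, Zfp410, Zfp395 and Zfp609. Zfp318, which is required for the RNA processing that yields IgD in B cells, held 588.4, 477.2, 506.2, 477.1 and 491.7 reads in leukaemia and 387.1, 182.0, 290.6, 177.9 and 279.9 in myeloid cells, 1.93-fold higher with no overlap. Zfp410, whose described target is the gene of the NuRD helicase Chd4, rose 1.59-fold (1204 ± 100.4 against 758.8 ± 34.1). Zfp395 rose 1.52-fold and Zfp609, which binds the cohesin loader Nipbl, 1.35-fold.

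Zfp143 and its partners did not move alike. Zfp143 is a promoter-binding activator that works with Thap11 and Hcfc1 at shared sites. It held 1057.8, 970.6, 1165.6, 1064.7 and 1039.0 reads in leukaemia and 1623.0, 1668.9, 1718.1, 1835.5 and 1640.0 in myeloid cells, 1.60-fold lower (adjusted p = 7.63e-07, limma). Thap11 was 1.79-fold lower (981.0 ± 120.8 against 1754 ± 166.8), whereas Hcfc1 was 1.56-fold higher (11568 ± 488.4 against 7426 ± 459.2). All 3 had no overlap between groups, as did 86.8% of all tested genes. Zfp143 lay at -0.04 under scaling to the table total and so passed in neither direction there.

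Several widely expressed regulators differed by under 1.5-fold. Zfp384, whose human counterpart is fused to other genes in B cell leukaemia, was 1.41-fold lower, and Zfp592 and Zfp687, partners in a complex with Zmynd8, were 1.49- and 1.26-fold lower. Zfp335, needed for T cell maturation, was 1.49-fold lower, Zfp131, a BTB-domain protein, 1.43-fold and Zfp148 1.39-fold. All 6 had no overlap with the deposited size factors, as did 86.8% of all tested genes. All 6 turned to positive log2 differences under scaling to the table total, of which only that of Zfp687 passed. Zfp292 was 1.60-fold lower on average, but its groups overlapped, with 1442 to 2636 reads in leukaemia and 2493 to 3901 in myeloid cells. Zfp341, an activator of the Stat3 gene, also overlapped (171.7 ± 37.8 against 225.5 ± 29.6), and its call was lost without any 1 of leukaemia libraries 1, 2 and 4 or myeloid libraries 4 and 5. Stat3 itself was 2.39-fold lower, at 5659 ± 212.4 against 13508 ± 1353. Zfp827, which brings the NuRD complex to telomeres, had 8 reads in all leukaemia libraries and 80 in all myeloid libraries.

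Members that act on RNA, ribosomes or ubiquitin went both ways, with 4 higher and 3 lower of 7 tested from a list of 11 (49.1% of all tested genes were higher). Zfp593 had the largest difference of them, and Zfp326, a subunit of the DBIRD complex that links elongation and splicing, rose 1.75-fold (732.7 ± 99.5 against 418.2 ± 55.4). Zfp598, a ubiquitin ligase that senses collided ribosomes, rose 1.25-fold (1731 ± 91.2 against 1385 ± 97.3), and its partner Ascc2, of the complex that takes such ribosomes apart, rose 1.87-fold. Zfp91, a ubiquitin ligase, was 1.11-fold higher on average with overlapping groups, and its call was lost without any 1 of leukaemia libraries 3, 4 and 5 or myeloid library 5. Zfp638, an RNA-binding protein known to silence unintegrated retroviral DNA, fell 1.69-fold (2815 ± 354.8 against 4757 ± 679.5), and Zfp830, known for a role in genome stability, 1.44-fold. Both passed in neither direction under scaling to the table total, where the estimate of Zfp830 was 0.11.

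Few KRAB members with described targets were in the table. Of 14 listed, 7 were in the table and 6 were tested, of which 5 rose and only Zfp445 fell, and quantile normalisation and scaling to the table total each gave 5 higher and 0 lower. Of all tested genes 49.1% were higher as deposited and 57.2% with scaling to the table total, and 6 genes are too few to set against these shares. Zfp110, one of a pair of interactors of the neurotrophin receptor p75, held 2399, 2331, 2660, 2529 and 2557 reads in leukaemia and 1370.0, 1438.4, 1488.6, 1251.4 and 1433.5 in myeloid cells, 1.79-fold higher without overlap. Its paralogue Zfp369 was 2.37-fold higher (480.3 ± 81.3 against 202.3 ± 49.4). Zfp932, which silences endogenous retroviruses, was 2.47-fold higher (689.4 ± 132.6 against 279.1 ± 76.5), although 37.0% of its 50-base stretches occur in other genes, and Zfp90 was 2.26-fold higher. Zfp819, also described at endogenous retroviruses, lay below the filter with 179 reads in leukaemia and 31 in myeloid cells.

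Most listed genes of the corepressor machinery of KRAB proteins were higher in leukaemia. Of 30 listed genes 25 were in the table and tested, and 21 rose and 4 fell, with a median log2 difference of 0.68, where 49.1% of all tested genes were higher and their median was -0.16. The counts were 21 and 1 with quantile normalisation (47.0% of all tested genes higher) and 22 and 1 with scaling to the table total (57.2% higher). At least 2-fold higher were 11 of the 25 (44.0%, against 22.4% of all tested genes), and 1 was at least 2-fold lower (4.0%, against 25.0%). Trim28 held 9613, 11133, 10786, 11552 and 12238 reads in leukaemia and 3107, 3755, 2873, 3117 and 3112 in myeloid cells. The groups were far apart and the fold was 3.47 (log2 difference 1.63 ± 0.078 SE, adjusted p = 4.79e-10, limma). Uhrf1 and Dnmt1, which copy DNA methylation at replication, rose 3.17- and 2.36-fold. Setdb1 rose only 1.20-fold. Chd3, a helicase of the NuRD complex, fell 7.85-fold (99.6 ± 15.1 against 782.5 ± 250.2), and Morc3 and Atf7ip, the partner of SETDB1, fell 1.56- and 1.48-fold, of which Atf7ip turned to positive estimates under quantile normalisation (0.07) and scaling to the table total (0.09). Of 14 listed partners and targets of single members 9 were tested, with 4 higher and 5 lower (5 and 2 with scaling to the table total). Bub3 was 1.17-fold higher with overlapping groups, and Lsm14a was 1.60-fold lower.

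Below the filter lay 57 members, of which 49 were higher in leukaemia and 7 lower (86.0% higher, against 57.4% of all genes there). Several had almost no reads in myeloid cells, and those named here were chosen after their values were seen. Zfp239 held 279.1, 297.7, 267.5, 329.4 and 279.2 reads in leukaemia and 13.99, 0, 6.11, 26.5 and 9.51 in myeloid cells. Zfp105, best known from testis, held 288.3 ± 40.7 against 15.5 ± 10.1. Zfp345 had 536 recovered reads in leukaemia and none in any myeloid library, at least 113-fold higher when the myeloid group is set to 3 reads in all, but 29.8% of its 50-base stretches occur in other genes and its value is uncertain. Zfp612, with 95 reads, was at least 20.6-fold higher on the same floor, and Zfp641, with 74 reads, at least 15.4-fold, although 1 of its leukaemia libraries was also at 0. These limits cover counting error only and take each read as an independent count. Among all recovered values 36 were of 1 read and 433 of 2 reads. If reads were counted in pairs, the limits are too strong, which was not tested.

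A few rare members were nearly absent from leukaemia instead. Zfp951 held 134.1, 76.8, 212.5, 42.9 and 137.2 normalised reads in myeloid cells and 3 reads in 1 leukaemia library with none in the other 4. The ratio of its means was 260.2, with a 95% counting interval of 86.1 to 1232 that covers counting error only. The interval takes each read as an independent count and is too narrow if reads were counted in pairs. Zfp987 had 213 reads in myeloid cells and none in leukaemia, at least 111-fold lower with reads taken as independent counts. However, 89.0% of its 50-base stretches occur in other genes, so its value is uncertain.

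Neighbouring members did not always share a direction. Members at most 3 steps apart in the order of coding genes formed 14 runs of 3 or more, with 70 members in all. By the unfiltered fit 3 runs were higher in leukaemia throughout, 2 were lower throughout and 9 held both directions. In that fit 62.8% of the 218 members and 50.8% of all genes were higher, so short runs can share a direction without any tie between neighbours. Whether neighbours share a direction more often than other members was not tested. In one run of 7 with both, Zfp786 was 23.7-fold higher (178 reads against 5), Zfp956 3.21-fold, Zfp282 1.80-fold, Zfp777 1.60-fold and Zfp398 1.36-fold higher, while Zfp212 and Zfp746 were 1.502- and 1.669-fold lower. The run of Zfp868, Zfp869, Zfp963 and Zfp866 was lower throughout, by 1.16- to 2.01-fold, with overlapping groups for Zfp866 and 39.4% of the 50-base stretches of Zfp963 in other genes.

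The longest run with 1 direction held 7 KRAB genes, Zfp114, Zfp111, Zfp109, Zfp108, Zfp93, Zfp61 and Zfp94, all higher in leukaemia. By the mean of both groups, all of them but Zfp111 lay under 300 normalised reads. In that range 59 of 63 KRAB members and 61.3% of all genes were higher without the filter, so a shared direction is usual for such members. Zfp114 held 440.0, 330.9, 337.2, 384.6 and 370.2 reads in leukaemia and 16.3, 15.4, 25.6, 42.9 and 19.0 in myeloid cells, 15.6-fold higher, although 29.5% of its 50-base stretches occur in other genes. Zfp109 was 9.50-fold higher (306.3 ± 39.6 against 32.3 ± 6.17), and Zfp111, described above, 7.86-fold. Zfp108 was 4.95-fold, Zfp93 (with 20.8% of its stretches shared) 3.87-fold, Zfp61 2.94-fold and Zfp94 2.33-fold higher. None overlapped between groups, and 84.5% of all genes of the table had no overlap. The nearest groups were those of Zfp94, with 68.0 reads in its lowest leukaemia library and 67.6 in its highest myeloid one. Levels per length within the run differed in leukaemia, from 10.8 normalised reads per kb for Zfp93 to 108.4 for Zfp111.

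**Figure D5:**
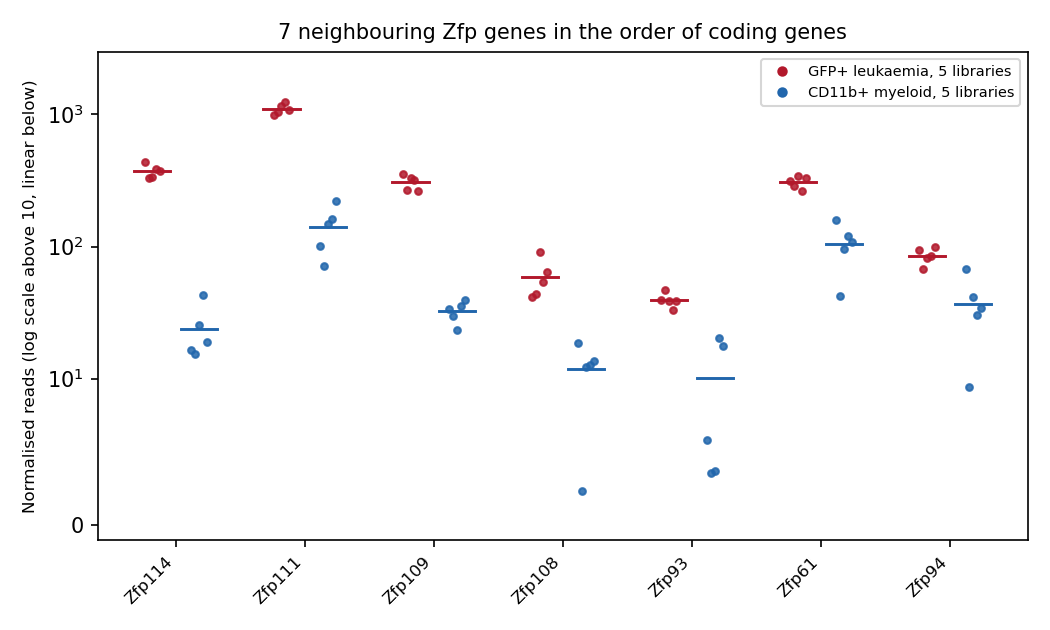
Normalised reads per library (vertical axis, logarithmic above 10 and linear below) of the 7 neighbouring KRAB genes in their order along the chromosome, leukaemia in red and myeloid in blue, 5 points a group with the mean as a line. Every gene has its leukaemia libraries above its myeloid ones, and Zfp114 has the largest fold of the run, 15.6.

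RefSeq promoter sequences on GRCm38.p6 were matched for 6 of these 7 genes. The 250 bases before each annotated start are shown because most of them carry the same stretch of letters. In capitals is ATTCTGGGAA, the longest stretch, on either strand, that at least 5 of the 6 share; it is absent from that of Zfp61. Since the stretch was chosen from these promoters, its presence here is a description and no test. The promoter of Zfp111 (chr7:24208150-24208399, minus strand) holds it 2 times. Those of Zfp109 (chr7:24237599-24237848, minus strand), Zfp108 (chr7:24254544-24254793, plus strand), Zfp93 (chr7:24270168-24270417, plus strand) and Zfp94 (chr7:24316667-24316916, minus strand) hold it 1 time each. That of Zfp61 lies at chr7:24299550-24299799, minus strand. Zfp184 (chr13:21944844-21945093, plus strand), which is on another chromosome, is shown with them because it was the only other member whose promoter held the same letters.

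Zfp111: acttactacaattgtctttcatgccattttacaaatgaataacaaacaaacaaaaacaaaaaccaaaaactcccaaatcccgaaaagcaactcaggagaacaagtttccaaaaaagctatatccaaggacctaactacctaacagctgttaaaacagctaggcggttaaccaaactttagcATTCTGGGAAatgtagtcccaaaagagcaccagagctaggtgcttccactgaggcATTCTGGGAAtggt
Zfp109: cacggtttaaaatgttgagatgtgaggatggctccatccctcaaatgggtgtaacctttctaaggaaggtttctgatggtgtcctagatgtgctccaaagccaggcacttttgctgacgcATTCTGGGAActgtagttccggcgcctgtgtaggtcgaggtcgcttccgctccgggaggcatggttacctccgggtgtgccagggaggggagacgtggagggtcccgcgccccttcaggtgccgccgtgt
Zfp108: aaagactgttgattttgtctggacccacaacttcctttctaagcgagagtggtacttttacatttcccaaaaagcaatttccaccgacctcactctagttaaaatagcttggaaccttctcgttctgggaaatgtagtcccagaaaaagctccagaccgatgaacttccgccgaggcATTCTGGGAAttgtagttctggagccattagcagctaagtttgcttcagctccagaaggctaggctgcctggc
Zfp93: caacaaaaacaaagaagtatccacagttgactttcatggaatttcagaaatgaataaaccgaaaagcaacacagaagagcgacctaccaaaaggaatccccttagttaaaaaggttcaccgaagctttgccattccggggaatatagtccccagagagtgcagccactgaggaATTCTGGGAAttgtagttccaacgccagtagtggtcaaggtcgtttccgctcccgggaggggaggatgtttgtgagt
Zfp61: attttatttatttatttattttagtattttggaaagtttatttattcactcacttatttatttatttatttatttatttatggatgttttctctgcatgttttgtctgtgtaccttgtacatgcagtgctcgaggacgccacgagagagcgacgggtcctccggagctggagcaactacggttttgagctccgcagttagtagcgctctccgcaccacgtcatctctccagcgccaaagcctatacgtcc
Zfp94: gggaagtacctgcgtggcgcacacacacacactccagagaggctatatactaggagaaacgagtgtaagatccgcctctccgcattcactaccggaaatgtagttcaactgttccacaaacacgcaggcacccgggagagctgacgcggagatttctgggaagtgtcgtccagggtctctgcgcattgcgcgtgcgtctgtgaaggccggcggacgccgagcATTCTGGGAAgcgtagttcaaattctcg
Zfp184: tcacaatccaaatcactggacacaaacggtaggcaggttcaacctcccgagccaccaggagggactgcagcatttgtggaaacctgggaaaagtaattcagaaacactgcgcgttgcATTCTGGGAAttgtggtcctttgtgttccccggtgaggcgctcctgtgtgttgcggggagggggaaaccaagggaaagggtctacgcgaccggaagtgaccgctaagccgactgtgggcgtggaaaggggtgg

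Over all promoters of the same length the stretch occurred in 85 of 27025 (0.315%). It occurred in 0.287% of the promoters of genes in the table and in 6 of 179 member promoters (3.35%). All these counts include promoters of the run that the stretch was taken from. The stretch was taken from a run whose members were all higher in leukaemia, so 5 of these 6 carriers and their direction were fixed by that choice, and the shares of members and of all promoters are not a comparison. Zfp184 was the only carrier among members outside the run. ACTACANTT or its reverse complement, which can overlap the end of that stretch, has the first letters of the motif known from sites of Zfp143 and Thap11. It occurred in 1.51% of all promoters, in 2.43% of those of genes in the table and in 18 of 179 member promoters (10.1%), of which 15 were higher and 3 lower. Of the 179, 111 were higher and 67 lower, and 5 of the 18 belong to the run from which the overlapping stretch was taken. Zfp111, Zfp109, Zfp108, Zfp93, Zfp94 and Zfp146 were among the 18. For comparison, the ETS letters CCGGAAGT were in 8.94% of member promoters and 6.04% of those of genes in the table, and the CCAAT box in 45.3% and 36.6%. The GC box GGGGCGGGG was less frequent in members, at 12.8% against 19.4%. A match is a description of the letters and says nothing of what binds there.

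Other zinc finger families with shared names were counted in the same way, where 49.1% of all tested genes were higher and 50.7% lower. Krueppel-like factors, which share the C2H2 fold, were lower in 10 of 11 tested and higher in 1, with 9 of them at least 2-fold lower. BTB-domain proteins of the Zbtb name numbered 11 higher and 12 lower of 23 tested, SCAN-domain proteins of the Zkscan and Zscan names 10 higher and 3 lower of 13, and CCCH proteins of the Zc3h name 8 higher and 6 lower of 14. The Zdhhc palmitoyltransferases, whose zinc fold binds no DNA, were higher in 3 and lower in 7 of 10. With scaling to the table total (57.2% of all tested genes higher and 27.6% lower), the counts were 1 higher and 9 lower for Krueppel-like factors, 12 and 3 for Zbtb, 10 and 2 for the SCAN names, 8 and 3 for Zc3h and 4 and 4 for Zdhhc. The difference between these splits and that of the Zfp series was not tested.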

How the data were processed

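The authors deposited 1 table of variance-stabilised log2 values for 10141 genes in 10 libraries, and the submitters' processing notes list HISAT2 (2.0.4 and 2.2.1) and DESeq2. Build, read counter and strand setting are not given in the sources used here. Groups came from the sample titles, because the cell type label reads as leukaemia for all 10 libraries. The labels' protocols give flow sorting for both populations, and the design text magnetic selection of CD45.2-negative CD11b+ cells.

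All libraries share a lowest deposited value of 8.1823. Inverting the stabilising function gave whole reads (within 0.1 read) for 100.0% of values up to 300 reads. The table holds only part of each library, so its total is not the sequencing depth. The comparison, leukaemia minus myeloid, was fitted on the deposited log2 values with limma 3.58.1 (R 4.3.3, trended variance, two-sided, Benjamini-Hochberg, 0.05) over 8079 genes whose mean lay over 1 unit above the lowest value, about 145.2 normalised reads. Log2 differences understate changes of genes with few reads, and folds are ratios of mean normalised reads. Values are means ± SD of 5 libraries unless marked as SE. Exon lengths, proteins, gene order and overlaps came from GENCODE M21, which held all 218 members. The alternatives were no filter, a stricter filter, no trend, voom on recovered reads, 2 other scalings, a replicate block, adjustment over 55536 annotated genes, and libraries left out.

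The members, the lists and the tests were chosen with earlier results of these data known. Named genes were the 12 highest and 12 lowest log2 differences among members above the filter whose groups did not overlap, the 6 members with the most reads per kilobase, all listed members with known roles, and the 3 highest and 3 lowest corepressors and partners. Members below the filter, members of neighbour runs and Setdb1 were named after their values were seen.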

Additional observations from a re-analysis of the deposited data

Results flagged for a closer look

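Among 128 groups of 5 libraries of the 64 named genes, 8 held a library far from the other 4, and chance flags about 1 group in 20. In Zfp146 the myeloid library 2 was the lowest, at 384.1 normalised reads, where the nearest was 543.7. In Zfp608 the myeloid library 4 was the highest, at 4529 against 3289. Zfp369 had its highest myeloid value in the same library 4, at 290.1 against 185.6. In Zfp318 the leukaemia library 1 was the highest, at 588.4 against 506.2. Morc3 was also highest in leukaemia library 1, at 5205 against 4497. Atf7ip was highest in leukaemia library 4, at 5586 against 5236. Trim28 and Bub3 were both highest in myeloid library 2, at 3755 against 3117 and at 4551 against 3906. The groups of Zfp146, Zfp608, Zfp369, Zfp318, Morc3, Atf7ip and Trim28 did not overlap with these libraries included, and those of Bub3 did. Of all tested genes 86.8% had no overlap. For Zfp146 and Zfp608 the lack of overlap was fixed by the way they were chosen.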

How the results depend on the processing

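Counts of members called were 88 higher and 73 lower, of which 34 and 16 by at least 2-fold. Without the filter 137 were higher, 77 of them by at least 2-fold. The stricter filter kept 72 members, 24 higher and 48 lower, with 7 and 8 at 2-fold, and the median log2 difference turned from 0.18 to -0.37. With reads scaled to the table total 22 were lower, and 82 and 5 passed 2-fold. Shares of all genes at 2-fold were counted only for the filtered fit as deposited, at 22.4% higher and 25.0% lower. The 2-fold counts of members under the other settings therefore stand without a comparison. The median of all tested genes itself lay at 0.43 with scaling to the table total, which raises every leukaemia value. That scaling turned the direction of Zfp445 (0.038), Zfp131 (0.133), Zfp148 (0.173), Zfp335 (0.074), Zfp341 (0.228), Zfp384 (0.14), Zfp592 (0.072), Zfp687 (0.305), Zfp830 (0.113) and Atf7ip (0.086), and quantile normalisation that of Zfp445 (0.013) and Atf7ip (0.067). The calls of Zfp106, Zfp292, Zfp638, Morc3 and Lsm14a were lost under both scalings, that of Zfp143 under the table total, and those of Zfp148, Zfp384, Zfp592 and Zfp687 under quantile normalisation. The cause was not tested. Of the 161 calls, 135 held when 55536 annotated genes were counted as tests, and 152 without myeloid libraries 2 and 4. Leaving out 1 library at a time gave 82 to 88 higher, 67 to 71 lower, 31 to 36 at least 2-fold higher, 15 to 20 at least 2-fold lower, and a median of 0.16 to 0.19. Same-number libraries deviated together in 4 of 5 pairs (correlations of 0.13 to 0.316) and not in the fifth (-0.0216), and not every library correlated best with its own number, so the numbers were not used as pairs. With the number as a replicate block 86 were higher and 70 lower, and among named genes only the call of Zfp341 was lost (adjusted p = 0.054, limma). Members with few reads are limited by counting.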
